A study of Homo sapiens with 2 samples.

Results

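Human embryonic stem cells labelled PB, the control, were compared with cells labelled PB-Tfcp2l1ΔCP2. In this comparison a set of 7 genes of the extracellular matrix and of proteins associated with it was followed. They were COL1A1, COL6A3, LAMA4, MATN4, TNC, EFEMP1 and LGALS1, 7 of the 425 rows of the authors' deposited table. The genes were chosen by symbol with their values in this comparison known, so their differences are a description and carry no test. LGALS1, COL1A1, COL6A3, LAMA4 and MATN4 were lower in PB-Tfcp2l1ΔCP2 cells, and TNC and EFEMP1 were higher. In reads, the decreases ran from 2.02-fold for LGALS1 to 8.52-fold for MATN4, and the increases were 2.02-fold for EFEMP1 and 4.89-fold for TNC.

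Both groups were cultures of HES2, an established human embryonic stem cell line, with 1 library each, and nothing in the labels says whether a culture was 1 clone or a pool. Both were grown for 2 passages in 10% KSR basal medium supplemented with 10 ng/ml of each of FGF2 and Activin A, so these agents were present in the control as well. By its name PB-Tfcp2l1ΔCP2 carries Tfcp2l1, a transcription factor gene of the pluripotency network, without a part named CP2; what PB stands for and the species of the insert are not given in the labels. TFCP2L1 had no row among those used here, so the label of the construct could not be set against a value. With 1 library per group there is no spread between cultures to compare with, and every difference below describes these 2 libraries.

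The table holds called genes only. Its rows had an absolute log2 ratio of at least 1.00 and an FDR of at most 0.000984; 224 rows were lower and 201 higher in PB-Tfcp2l1ΔCP2 cells. The number of tests recovered from the FDR and p-values was 18250, of which the higher rows are 1.10% and the lower rows 1.23%. The members were taken from these rows, so nothing is read from that share for them. Just inside the ratio threshold were LGALS1, at -1.01 in the authors' deposited table, and EFEMP1, at 1.02; genes outside it were not analysed here. Of 12 markers of pluripotent stem cells 1 had a row, ZFP42, with a value of 5.08 in the control and 1.99 in PB-Tfcp2l1ΔCP2 cells. No marker had a row among 15 of fibroblasts and stroma, 6 of smooth muscle and mesoderm derivatives and 4 of endothelium. DPPA3, another gene of pluripotent cells, was also lower (5.08 and 1.92; 120 and 46 reads). A list of 16 markers of primitive streak, mesendoderm and endoderm was written after their values were seen. Of these, 8 had a row and all 8 were higher. Their summed value was 5.59 in the control and 39.6 in PB-Tfcp2l1ΔCP2 cells, and CER1 and MIXL1 made up most of both sums. The endoderm gene CER1 had a value of 2.43 in the control and 25.4 in PB-Tfcp2l1ΔCP2 cells. EOMES, a factor of the primitive streak, stood at 0.11 and 3.06, MIXL1 at 2.68 and 7.27, and SOX17, an endoderm factor, at 0.06 and 0.89. GATA5 and APLNR, genes of endoderm and mesoderm that are not in that list, were lower. GATA5 had 0.99 in the control and 0.29 in PB-Tfcp2l1ΔCP2 cells, and APLNR had 0.66 and 0.26. The part that cells with these markers had in the members' differences was not tested. In bulk RNA, fewer cells that express a gene and less of its RNA per cell cannot be told apart.

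The extracellular matrix is the mesh of secreted proteins that surrounds cells and to which they attach through receptors such as integrins. Collagens give it tensile strength, laminins build the basement membrane on which epithelia and cultured pluripotent cells rest, and matrilins and fibulins link its fibres and networks. Tenascins are matricellular proteins, which alter adhesion more than they bear load, and galectins are lectins that bind galactose-bearing sugars on matrix and cell-surface glycoproteins.

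Of the 7 members, 4 (COL6A3, LAMA4, MATN4 and TNC) were matched by Gene ID to RefSeq promoter sequences of build GRCh38.p14, each covering 250 bases before to 50 bases after the start of the gene. COL1A1, EFEMP1 and LGALS1 are not shown. The sequences of a collagen and a laminin gene that were lower and of the tenascin gene that was higher are printed so that the windows searched for motifs can be read beside the values. All 3 lie on the minus strand and are written 5′ to 3′ along the gene. COL6A3 is at chr2:237414115-237414414, LAMA4 at chr6:112254518-112254817 and TNC at chr9:115118108-115118407. Capitals mark a match to TATAA, the core of the TATA box, or to GGGCGG, the core bound by SP1, on either strand.
COL6A3: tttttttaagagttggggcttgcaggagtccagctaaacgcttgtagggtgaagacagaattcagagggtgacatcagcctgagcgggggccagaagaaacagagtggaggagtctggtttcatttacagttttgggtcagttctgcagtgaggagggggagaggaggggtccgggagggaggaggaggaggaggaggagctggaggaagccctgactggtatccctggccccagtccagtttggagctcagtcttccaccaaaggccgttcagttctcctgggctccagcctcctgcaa
LAMA4: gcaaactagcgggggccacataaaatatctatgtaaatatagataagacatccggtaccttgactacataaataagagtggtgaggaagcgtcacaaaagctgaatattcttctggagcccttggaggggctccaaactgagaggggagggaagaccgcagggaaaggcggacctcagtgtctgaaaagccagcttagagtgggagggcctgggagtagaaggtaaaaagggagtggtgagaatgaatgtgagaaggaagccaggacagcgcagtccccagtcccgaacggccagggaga
TNC: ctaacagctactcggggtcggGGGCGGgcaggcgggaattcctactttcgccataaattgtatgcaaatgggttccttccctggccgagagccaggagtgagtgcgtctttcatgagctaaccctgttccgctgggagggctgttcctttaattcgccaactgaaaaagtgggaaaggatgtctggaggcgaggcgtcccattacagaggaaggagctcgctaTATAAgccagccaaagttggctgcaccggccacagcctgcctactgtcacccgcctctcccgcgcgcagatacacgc

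The TNC promoter held 1 TATAA, which began 27 bases before the start, and 1 GGGCGG. The COL6A3 and LAMA4 promoters and both MATN4 entries, which overlap each other, held neither. Of all 35116 RefSeq promoters of this length, 20.4% held TATAA and 45.0% held GGGCGG. None of the 5 entries held CATTCC, the core bound by TEAD factors (14.0% of all promoters). None held 2 exact CCAG sites with 6 bases between them, 1 form of the CP2 family pattern (4.04%). Other spacings and looser forms of that pattern were not searched, so their absence is not shown. The TNC promoter had 18 CpG dinucleotides, against 4 for COL6A3, 8 for LAMA4, and 7 and 12 for the MATN4 entries; the median of all promoters was 14. GC content in the printed windows was 56.3% for COL6A3, 51.3% for LAMA4 and 57.3% for TNC. These matches and counts describe the printed windows and draw nothing about the factors.

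The collagen genes among the members were lower in PB-Tfcp2l1ΔCP2 cells. COL1A1 (Gene ID 1277) encodes the alpha 1 chain of type I collagen, the main fibril-forming collagen of connective tissue. Its deposited expression value, on a scale whose unit the table does not name, was 41.6 in the control and 18.0 in PB-Tfcp2l1ΔCP2 cells. These values stood on 5774 and 2556 reads, recovered as whole numbers from the deposited p-values, or 2.31-fold fewer reads (95% counting interval 2.21 to 2.42). COL1A1 was therefore the member with the most reads and the narrowest interval, and by p-value it held rank 15 among the 18250 tests of the authors' deposited table. COL6A3 (Gene ID 1293) encodes the alpha 3 chain of type VI collagen, which forms beaded microfilaments close to cells. It had a value of 1.79 in the control and 0.59 in PB-Tfcp2l1ΔCP2 cells, on 393 and 136 reads, or 2.96-fold fewer (2.43 to 3.62). The lower bound for COL6A3 was just above the upper bound for COL1A1, so the intervals, which cover counting error only, did not overlap. The partner chain genes COL1A2, COL6A1 and COL6A2 had no row and were not analysed here.

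LAMA4 and MATN4 were lower too, both at values below 1. LAMA4 (Gene ID 3910), the gene of the laminin alpha 4 chain found in basement membranes of vessels and muscle, had a value of 0.83 in the control and 0.26 in PB-Tfcp2l1ΔCP2 cells, a ratio of 3.19. MATN4 (Gene ID 8785), the gene of matrilin-4, a filament-forming adaptor protein, had 0.53 against 0.06. The MATN4 values stood on 25 and 3 reads, which is 8.52-fold fewer, and the counting interval ran from 2.60 to 44.1. MATN4 thus had the largest ratio of the 7 genes and the least certain one. Its interval lay above that of COL1A1 and overlapped those of COL6A3 and LAMA4.

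For LAMA4 the reads gave a smaller difference than the values. The pair of 68 control reads and 28 reads in PB-Tfcp2l1ΔCP2 cells was the only one searched that gave the deposited p-value; the next nearest pair missed it by a relative 0.00534, against a tolerance of 5e-06. Those reads are 2.48-fold apart (1.58 to 4.01), whereas rounding of the values allows a value ratio of no less than 3.11. Expressed as reads per unit of value and kilobase of the deposited gene length, LAMA4 stood at 17.8 in the control and 23.5 in PB-Tfcp2l1ΔCP2 cells. The medians over 296 rows with at least 20 reads in each library were 23.0 and 23.6. The control value of LAMA4 was therefore high for its reads, while its value in the other library was close to the median. The log2 read ratio and the log2 value ratio differed by 0.36 for LAMA4, the largest distance of the 296 rows, whose median was 0.0081 and 95th percentile 0.082. The search admits only pairs within a set range of the values, so rows with a larger distance would have been left out. COL1A1, COL6A3, TNC, EFEMP1 and LGALS1 were within 0.038 of 0 on this measure. The cause was not tested.

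**Figure D1:**
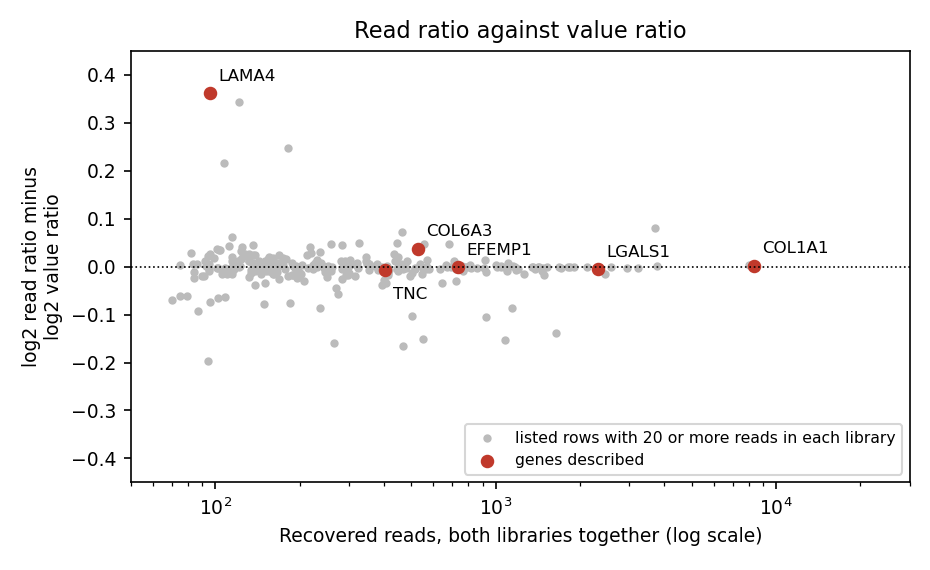
Log2 ratio of recovered reads minus log2 ratio of deposited values (y axis) against the reads of both libraries together (x axis, log scale), for the 296 listed rows with at least 20 reads in each library; red points are genes described in the text, and MATN4 is not shown because it had 3 reads in PB-Tfcp2l1ΔCP2 cells. LAMA4 lies at 0.36, and the other 5 red points lie within 0.038 of the dotted line at 0.

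LGALS1 (Gene ID 3956) encodes galectin-1, a small lectin that is secreted and binds laminin and fibronectin sugars. Its value was 127 in the control and 63.0 in PB-Tfcp2l1ΔCP2 cells, the highest of all listed rows in each. The reads were 1533 and 777, or 2.02-fold fewer (1.85 to 2.20), over a gene length of 586 bases. Its interval ended just below the lower bound of COL1A1. LGALS1 was the only member whose direction turned under an alternative: rescaling the libraries by the median of ratios moved its log2(value + 1) difference to 0.021. LGALS1 and COL1A1 together made up 96.1% of the summed value of the 7 genes in the control and 89.7% in PB-Tfcp2l1ΔCP2 cells. The sum over the 5 lower genes went from 171 to 81.8 and that over the 2 higher genes from 3.68 to 8.41, so the higher genes were a small part of the set's sum in either library.

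TNC and EFEMP1 went the opposite way. TNC (Gene ID 3371) encodes tenascin-C, a large glycoprotein of embryonic and healing tissue that modulates cell adhesion. It had a value of 0.33 in the control and 1.62 in PB-Tfcp2l1ΔCP2 cells, on 67 and 335 reads, or 4.89-fold more (95% counting interval 3.75 to 6.45). EFEMP1 (Gene ID 2202) encodes fibulin-3, an EGF-repeat glycoprotein of basement membranes and elastic fibres. It had 3.35 against 6.79, on 240 and 497 reads, or 2.02-fold more (1.73 to 2.37). The interval of TNC lay wholly above that of EFEMP1.

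**Figure D2:**
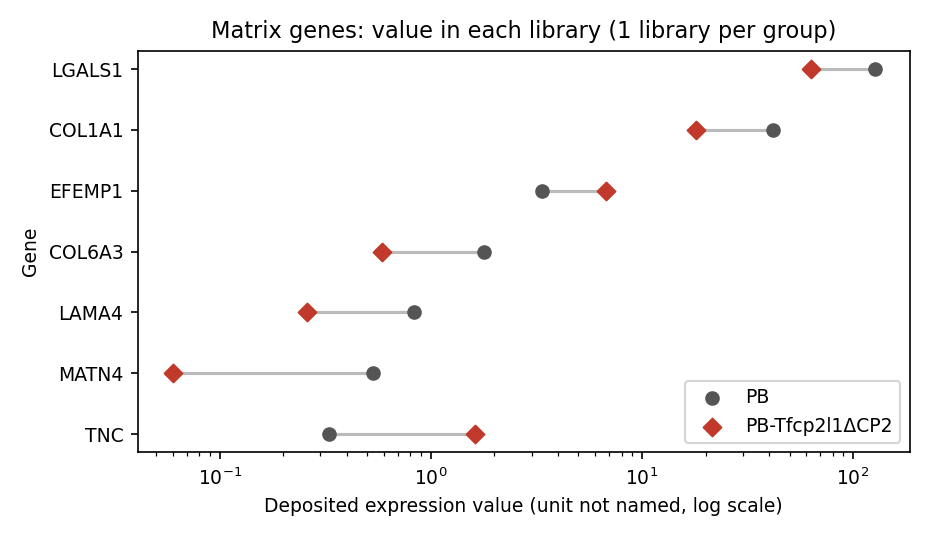
Deposited expression value (x axis, log scale, unit not named) of each of the 7 genes (y axis) in the PB library (grey circles) and the PB-Tfcp2l1ΔCP2 library (red diamonds), 1 library per group; a line joins the 2 values of a gene. LGALS1, COL1A1, COL6A3, LAMA4 and MATN4 have the red diamond to the left, and EFEMP1 and TNC to the right.

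The order of the levels was LGALS1, COL1A1, EFEMP1, COL6A3, LAMA4, MATN4 and TNC in the control, from 127 down to 0.33. In the PB-Tfcp2l1ΔCP2 library TNC stood between EFEMP1 and COL6A3, and the order of the other genes was as in the control. Neighbours in this order could not be compared with a spread, since each group had 1 library.

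On the log2(value + 1) scale, on which low genes shrink, the differences (PB-Tfcp2l1ΔCP2 minus control) were -1.17 for COL1A1, -0.996 for LGALS1, -0.81 for COL6A3, -0.54 for LAMA4, -0.53 for MATN4, 0.84 for EFEMP1 and 0.98 for TNC. Of the members, 5 reached a value of 1 in some library; COL1A1 alone of them was 2-fold or more lower on this scale, 0 were 2-fold or more higher, and LGALS1 lay just short of 2-fold. Of all 291 rows that reached a value of 1, 16.8% passed 2-fold upward and 16.8% downward. Because of this shrinkage MATN4, which had the largest ratio of the values, had the smallest difference on the log2(value + 1) scale.

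**Figure D3:**
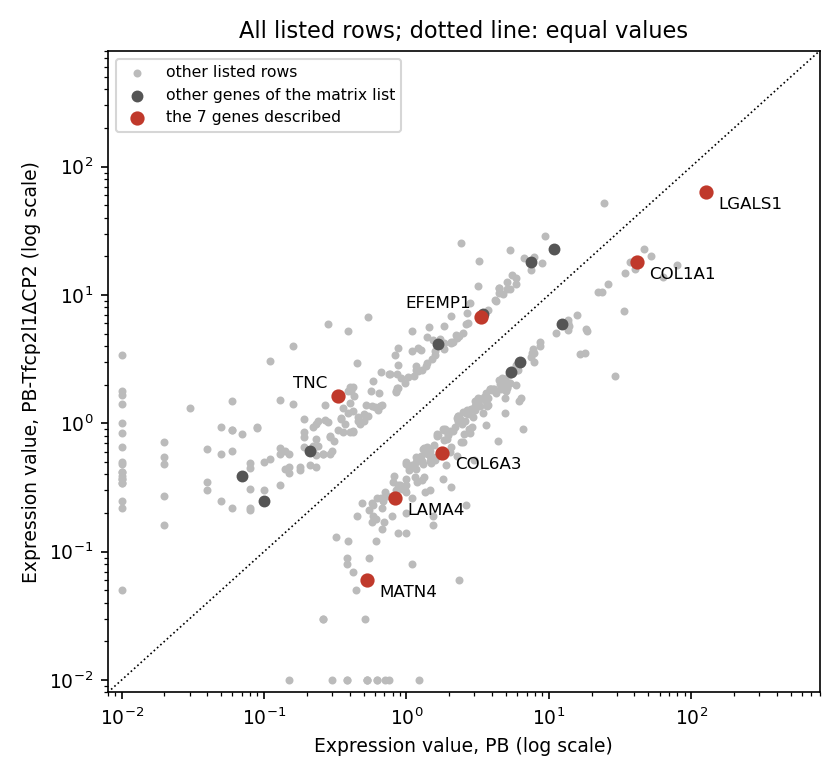
Expression value in PB-Tfcp2l1ΔCP2 cells (y axis) against that in the PB library (x axis), both on log scales, for the 425 listed rows; red points are the 7 genes, dark points the other listed genes of the matrix list and pale points all other rows. No row lies near the dotted line of equal values because the table lists rows at least 2-fold apart; LGALS1 is the outermost point, at 127 and 63.0.

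The members were set beside a list of 213 matrix genes in 16 classes, from collagens and laminins to receptors and enzymes. Of these, 17 had a row, 9 higher and 8 lower, among them the 7 members. The other 196 were not analysed here. The 17 are 7.98% of the list, whereas the higher rows are 1.10% and the lower rows 1.23% of the 18250 tests. The list was written with earlier results of these data known, so nothing is read from its share. The 10 genes that are not members were 7 higher and 3 lower. The median log2 value ratio over the 17 was 1.02, against -1.03 over all 425 rows; since no row lies within 2-fold, either median falls on whichever side holds more rows. Of the 17 genes 12 reached a value of 1; on the log2(value + 1) scale 2 of these passed 2-fold upward (CYR61 and CTGF) and 1 downward (COL1A1). Their median difference of 0.015 lay midway between a gene that was higher and one that was lower, against -0.61 over the 291 rows.

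Collagens did not all go the way of COL1A1 and COL6A3. Of 44 collagen genes 3 had a row, and the third, COL12A1, which encodes a collagen on the surface of fibrils, was higher. Its value was 0.1 in the control and 0.25 in PB-Tfcp2l1ΔCP2 cells, on 28 and 68 reads (2.37-fold, 1.51 to 3.83). LAMA4 was the only 1 of 12 laminin genes with a row, as were MATN4 of 4 matrilins, TNC of 4 tenascins, EFEMP1 of 7 fibulins and LGALS1 of 12 galectins. For these 5 classes the direction of the class is thus the direction of 1 gene. In the elastic fibre class 1 of 13 had a row, LTBP2, which encodes a microfibril protein, at 0.21 against 0.61 (42 and 125 reads, 2.91-fold higher, 2.04 to 4.23).

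The matricellular class, to which tenascins are close in function, had a row for 4 of its 16 genes, CYR61, CTGF, THBS1 and NOV, which were higher. SMOC1, a gene of the SPARC family that is not in the list and was picked after its values were seen, was lower, at 0.38 in the control and 0.09 in PB-Tfcp2l1ΔCP2 cells (33 and 8 reads). NOV, of the same family as CYR61 and CTGF, had 4 reads in the control and 24 in PB-Tfcp2l1ΔCP2 cells (5.87-fold, 2.02 to 23.3). THBS1, the gene of thrombospondin-1, had 285 and 720 reads. The increases of THBS1 (2.15 to 2.84), CYR61 (2.12 to 2.68) and CTGF (1.91 to 2.33) had intervals that overlapped that of EFEMP1 and lay below that of TNC. CYR61, CTGF and THBS1 were known to be higher when the list was written.

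The matrix turnover class went both ways, with 3 of 26 having a row. ADAMTS1, a protease gene, was 2.04-fold higher (378 and 790 reads, 1.81 to 2.32). The related aggrecanase gene ADAMTS4 was lower, with 5.39 in the control against 2.52 (549 and 263 reads, 2.14-fold, 1.84 to 2.48). MMP9, the gene of a gelatinase that cuts denatured collagen, was lower as well, with 12.4 against 5.93 (679 and 332 reads, 2.09-fold, 1.83 to 2.39). Of 19 proteoglycan genes 1 had a row, the syndecan gene SDC2, at 6.31 against 2.99 (510 and 247 reads, 2.11-fold lower, 1.81 to 2.47). None of 26 integrin genes, 4 other matrix receptors and 20 genes of collagen maturation had a row. The same held for 4 other basement membrane genes and 2 adhesive glycoprotein genes. None of the genes listed in these classes can therefore be set beside the members. The list does not hold every gene of these kinds. FREM1, a basement membrane gene outside it, had a row and is given under the other observations.

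**Figure D4:**
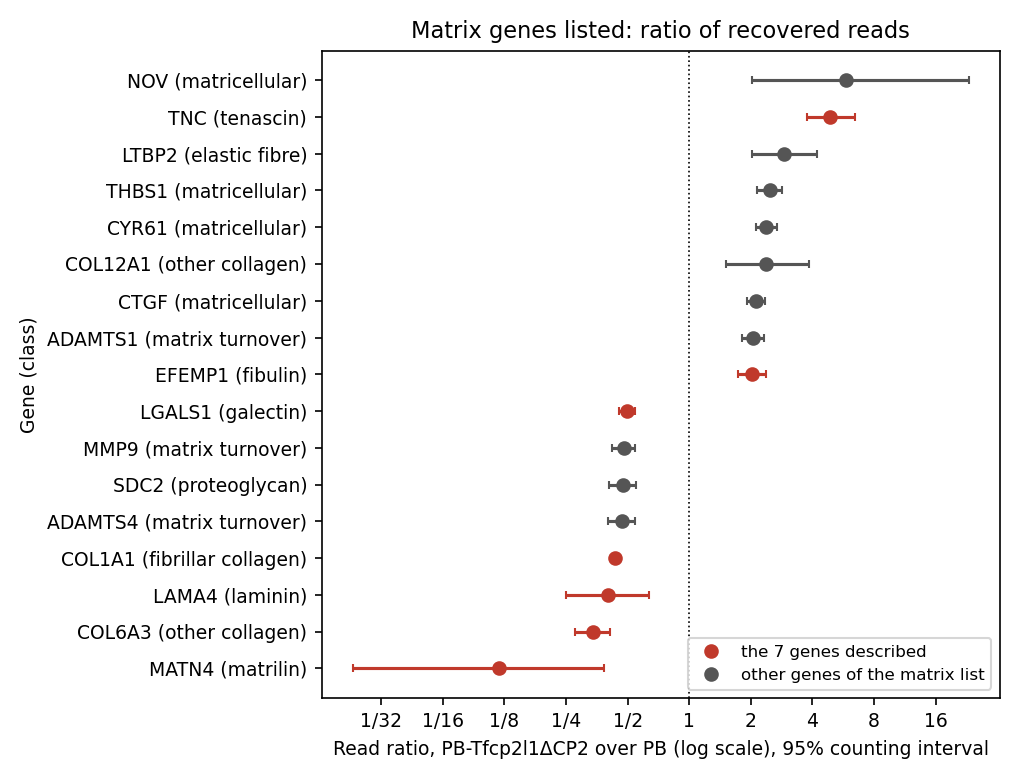
Ratio of recovered reads, PB-Tfcp2l1ΔCP2 over PB corrected for library totals (x axis, log scale), with exact 95% counting intervals for the 17 matrix genes with a row (y axis, class in parentheses); red marks the 7 members, grey the other 10 genes, and the dotted line is a ratio of 1. Both red groups have grey genes on their side. The widest intervals belong to MATN4 (25 reads in PB and 3 in PB-Tfcp2l1ΔCP2) and NOV (4 and 24 reads).

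Outside the matrix list, the listed genes whose pair of values lay nearest to COL1A1 were EEF1A2 (37.4 in the control, 18.1 in PB-Tfcp2l1ΔCP2 cells) and BNIP3 (40.2 and 15.9), at distances of 0.15 and 0.19 on the log2 scale over both libraries. Nearest to TNC were ABCG1 (0.39 and 1.78) and PLAGL1 (0.4 and 1.45), at 0.28 and 0.32. The likeness is measured over 2 libraries among 350 rows.

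Of the members, 3 share exon bases with a gene on the opposite strand in GENCODE release 29. LAMA4 shares 1.78% of its exon bases with the antisense gene Z99289.1, TNC 1.34% with DEC1 and MATN4 3.12% with RBPJL. None of these partners had a row. Whether the counting used strand is not given in the sources used here, so reads from the shared bases cannot be told apart; COL1A1, COL6A3, EFEMP1 and LGALS1 share none.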

How the data were processed

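RNA was extracted with Trizol and libraries were sequenced on BGISEQ-500, per the labels' protocols. Per the submitters' processing notes, Bowtie 0.12.2 and hg19 were used in an unstated role; which counter, annotation and test were applied is not given in the sources used here. The authors' deposited table holds, per the file headers, the expression value of each gene in both libraries with its length, log2 fold change, FDR and p-value. The expression values are a signal that the authors did not name further, with 2 decimals and a lowest value of 0.01. The authors' log2 fold change is the plain log2 ratio of these values (largest distance 5.33e-15). The authors' p-values and FDR rest on the reads of 1 library per group. Another deposited column holds the gene length in bases.

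The p-values behave as a two-sided Audic-Claverie test. Whole reads were recovered as the only pair that gave the p-value to 5e-06, with 12 to 36 reads per unit of value and kilobase and at most 1.6 times between libraries; this found 1 pair for 385 of 425 rows (90.6%) and for all 7 members. The ratio of library totals was 1.02; the totals themselves are not given. The search was tested on simulated data made with the same formula, which checks the search and not whether the authors used that formula. Read ratios were divided by 1.02 (unrounded) and carry exact conditional binomial (Clopper-Pearson) 95% intervals, which cover counting error only and treat reads as independent molecules. Differences are of log2(value + 1), with calls at 2-fold for values of 1 or more. Promoter sequences and gene names are from RefSeq; coordinates are of its build GRCh38.p14, not hg19. GENCODE served only for the exon overlaps of the members with other genes and for the names of those genes. Genes named by rule are the members, the genes of the matrix list with a row except 1 that is not reported here, and the 2 nearest rows to COL1A1 and TNC. The markers, DPPA3, GATA5, APLNR, SMOC1 and the genes taken from the authors' annotation stand outside this rule. Of these, all but the 4 first marker lists were chosen after their values were seen. The members and lists were chosen with earlier results of these data known. Alternatives covered the pseudocount, scaling, filter, threshold and list. Python 3.11.15, scipy 1.17.1 and pandas 2.3.3 were used.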

Additional observations from a re-analysis of the deposited data

How the results depend on the processing

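No paired analysis was possible because there was only 1 library per group, and no library could be left out. The 7 members kept their direction under the pseudocounts of 0.5 and 5 and without a pseudocount. They also kept it with the total of the listed genes as scale and on recovered reads. These outcomes were fixed in advance or nearly so. A pseudocount cannot turn a direction, and that scaling shifts log2 ratios by 0.34, while every row has an absolute log2 ratio of at least 1.00. The reads were searched within a set range of the same values. With median-of-ratios scaling 6 members kept their direction, and LGALS1 stood at 0.021. That factor (0.49) is the median ratio of called rows only, so a gene about 2-fold lower lands near 0 by construction. In 20 of 42 recomputations a member's value turned or moved beyond a margin. The margin was drawn from its counting interval on the log2 scale and was smaller than the full width of that interval. The counts of matrix genes at least 2-fold apart, 2 higher and 1 lower on the log2(value + 1) scale, were 4 and 4 at a pseudocount of 0.5, 0 and 1 at a pseudocount of 5, 6 and 6 without one or on recovered reads, and 6 and 6 at 1.5-fold. No filter, one at 5, or structural proteins alone left them at 2 and 1. Dropping the filter could not add a call, because values below 1 cannot differ 2-fold on this scale. A filter at 5 could not remove one, because CYR61, CTGF and COL1A1 each had values above 5. The counts were 6 and 0 with either scaling, which shift log2 ratios upward by 0.34 (total of the listed genes) and 1.03 (median of ratios). After seeing the data 2 alternatives were added: without pseudocount and filter the counts were 9 and 8, fixed by the table's own threshold, and among rows with the authors' extracellular matrix annotation they were 1 and 3. Depth limits MATN4 most, with 3 reads in 1 library.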

Other observations

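Beyond the matrix list, which was written from gene families, the cellular component terms in the authors' deposited table name the extracellular matrix, collagen or basement membrane for 19 rows, 10 higher and 9 lower, of which 12 are in the matrix list and 6 are members. The other 7 were seen with their values. FREM1, which encodes a basement membrane protein of the epidermis, had a value of 0.23 in the control and 0.98 in PB-Tfcp2l1ΔCP2 cells. TNFRSF11B, the gene of the secreted decoy receptor osteoprotegerin, had 0.19 and 0.85. The protease genes ADAMTS6 (0.14 and 0.44) and ADAMTS17 (0.18 and 0.43) were higher as well, as was ADAMTS1, whereas ADAMTS4 was lower. Lower in PB-Tfcp2l1ΔCP2 cells were ANGPTL4, a secreted lipase inhibitor gene (2.5 and 0.72), the ectonucleotidase gene ENTPD2 (5.1 and 1.9) and EFHB (1.4 and 0.59). Of these rows FREM1 and TNFRSF11B had the largest value ratios, 4.26 and 4.47, near the 4.91 of TNC.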
